A study of Mus musculus with 13 samples.

Results

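The 10 genes described here encode the enzymes of de novo fatty acid synthesis and the main controls of that pathway in liver: Srebf1, Mlxipl, Acly, Acaca, Acacb, Fasn, Scd1, Elovl6, Me1 and Thrsp. They were chosen by that function, matched to the count tables by Entrez gene identifier, and are 10 of the 23785 genes present in any table. Liver RNA came from C57 mice aged 3 months in 3 groups. The no BDL group held 5 mice labelled as not treated, without bile duct ligation (BDL, surgical closure of the bile duct, which causes cholestasis), and no sham operation is stated for them. The miR-Ctrl BDL group held 4 ligated mice given a control oligonucleotide. The anti-miR-873-5p BDL group, called the treated mice below, held 4 ligated mice given an inhibitor of the microRNA miR-873-5p. Injections into the tail vein carried 60 µg per mouse on days 3 and 5 after ligation, and livers were taken on day 7, so both BDL groups share surgery and injections that the no BDL group lacks. A mouse number recurs in each group but names another animal there, and the labels give no litters or surgery days. The deposited table that sets the BDL groups against each other lacks miR-Ctrl mouse 3 and treated mouse 2, which are present in the other tables.

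De novo lipogenesis turns carbohydrate carbon into fatty acids. Citrate leaves the mitochondrion and is cut to acetyl-CoA, which is carboxylated to malonyl-CoA, assembled into palmitate with NADPH as reductant, lengthened and desaturated. Hepatocytes raise the pathway after feeding, when insulin acts through SREBP-1c (encoded by Srebf1) and glucose metabolites act through ChREBP (encoded by Mlxipl), and lower it in fasting. The liver X receptor and thyroid hormone also drive several of these genes.

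The microRNA that the inhibitor is directed at is shown first, because its seed defines the letters searched in the members. RefSeq lists it as mmu-miR-873a-5p, at chr4:36668556-36668576 on the minus strand of GRCm38.p6, with the seed (bases 2 to 8) in capitals:
mmu-miR-873a-5p: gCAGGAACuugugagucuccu
A match to this seed reads GTTCCTG in DNA letters. It was searched on the transcript strand of the longest annotated 3′UTR of each gene and occurred in 4 of the 10 members, beside 14.1% of 21007 genes with a 3′UTR. Longer 3′UTRs hold more matches: among 3′UTRs where the shorter was at least 80% as long as the longer, a match occurred in 11.7% for Mlxipl, 20.2% for Acaca, 12.4% for Acacb and 30.1% for Scd1. For the 6 members without a match the same share was 40.6% for Elovl6, 20.7% for Fasn, 13.4% for Me1, 10.9% for Acly, 10.6% for Srebf1 and 8.53% for Thrsp. The 5 sites are given with the match in capitals:
Mlxipl, chr5:135137679-135137705, plus strand: accatccttaGTTCCTGagcagagagg
Acaca, chr11:84400285-84400311, plus strand: tcatgtcattGTTCCTGgtcaaacaca
Acacb, chr5:114249727-114249753, plus strand: tgtagctgcgGTTCCTGaccagcgact
Scd1, chr19:44397887-44397913, minus strand: gggcttctgaGTTCCTGtttcaaacgt
Scd1, chr19:44394714-44394740, minus strand: aactatatatGTTCCTGagaccatcgt
The match is followed by an A in the sites of Mlxipl and Acacb and in the distal site of Scd1. These letters are a description, and binding was not measured in these livers.

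Lipogenic promoters are known for binding NF-Y, whose core letters are CCAAT, next to sites of SREBP, ChREBP and the general factor Sp1. RefSeq promoters from 250 bases before to 50 bases after a start site were matched for 9 of the 10 members, without Scd1. These members have 13 such promoters. On either strand, CCAAT occurred in 8 of the 13, from 7 members, and in 37.4% of all 32851 promoters of that length. The letters GGGCGG, an Sp1 core, occurred in 5 of the 13, from 4 members, and in 35.7% of all promoters. The E-box CACGTG occurred in 1 of the 13, that of Mlxipl, and in 7.15% of all promoters, and the sterol element TCACCCCAC in 0 of the 13 and 0.551% of all promoters. Windows are shown for Fasn and Thrsp, whose reads are set against each other below, and for the E-box of Mlxipl, the member with the lowest adjusted p below. They are on the strand of the gene, with the motif in capitals (ATTGG where CCAAT lies on the other strand):
Fasn, chr11:120824595-120824619: gcctcggtgtCCAATtggtttcgat
Fasn, chr11:120824623-120824647: gcgcgccgccATTGGgccaccgaga
Thrsp, chr7:97417588-97417612: ctgtgttgctCCAATggttgggctt
Thrsp, chr7:97417615-97417639: aaacgctgggATTGGctcaaaacag
Mlxipl, chr5:135089782-135089807: ggctgccatcCACGTGctaaggagag
A further ATTGG of Fasn overlaps the CCAAT of its first window.

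The tables hold 12185333 to 19689037 counted reads per mouse, of which the 10 members took 0.0627% to 2.64%. Each member had more than 100 reads in every mouse, so counting error is small beside the spread between mice, and all 10 passed the filter on low counts in all 3 comparisons. Levels are normalized CPM (reads over library sizes corrected by TMM factors, computed within each table). Differences are log2 fold changes (log2FC) with their standard error (SE) from the quasi-likelihood test of edgeR, and p-values are adjusted by Benjamini-Hochberg over every gene tested. The libraries differed in composition: the 20 genes with the most counts held 31.3 to 45.2% of reads without BDL and 14.8 to 20.1% in BDL livers of the same tables, so the scaling can move calls and directions.

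Hepatocyte markers checked the tissue. The summed level of 8 of them was 98830.5 to 112211 CPM without BDL, 41767 to 67924 in miR-Ctrl BDL and 38867 to 78301 in treated mice, and 6 and 3 of the 8 fell in the BDL groups by TMM scaling, the other scalings not being run for markers. The 7 cholangiocyte markers summed to 38.3 to 112.7, 400.3 to 1465 and 195.7 to 1442 CPM, and 7 of 7 rose in both BDL groups. Of 6 macrophage markers 5 rose in miR-Ctrl BDL and 2 in treated mice, of 6 stellate cell markers 4 and 3, and of the neutrophil markers tested 4 of 4 and 3 of 3. Of all genes tested, 16.6% fell and 19.1% rose in miR-Ctrl BDL, and 8.44% fell and 13.1% rose in treated mice. In RNA from whole liver, fewer hepatocytes and less lipogenic RNA per hepatocyte cannot be told apart, and the part of these marker shifts in the members' differences was not tested. Markers of fat tissue, which also makes fatty acids, were low, and all 7 adipocyte markers summed to 12.5 to 32.5 CPM. Lep was at 0 in all 13 mice, and Plin1 was at 0 in no BDL and miR-Ctrl BDL. Only 2 of the 7, Fabp4 and Lipe, passed the filter on low counts. Lipe fell in miR-Ctrl BDL by TMM scaling, and 0 fell in treated mice.

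Without ligation, Scd1 (stearoyl-CoA desaturase, which puts the double bond into palmitate and stearate) was the most abundant member per length, with 2652 ± 1282 CPM per kilobase of exon (SD, n = 5). Thrsp, which encodes a small protein that promotes fatty acid synthesis and responds to thyroid hormone and carbohydrate, followed with 323.9 ± 211.5. Fasn (fatty acid synthase) had 95.04 ± 45.7, Acly (ATP citrate lyase) 86.8 ± 33.5, Me1 (cytosolic malic enzyme, a source of NADPH) 75.1 ± 45.3, Srebf1 63.5 ± 19.3 and Mlxipl 61.7 ± 15.5 CPM per kilobase. Elovl6, the elongase that makes stearate from palmitate, had 20.1 ± 10.1. Exon length was the union over all annotated transcripts, 17074 bases for Acaca, which lowers the value of genes with many exon variants. By this length the acetyl-CoA carboxylases were lowest, with 14.4 ± 6.46 for Acacb and 7.37 ± 2.27 for Acaca. In this order the ranges of neighbours were apart between Scd1 and Thrsp and between Mlxipl and Elovl6, and all other neighbours overlapped. By group mean Scd1 also ranked 1 in both BDL groups, where Thrsp ranked 4, at 29.3 ± 25.9 (SD, n = 4) in miR-Ctrl BDL and 41.5 ± 68.5 (SD, n = 4) CPM per kilobase in treated mice. The levels of the BDL groups come from separately scaled tables and are set side by side without a test.

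**Figure D1:**
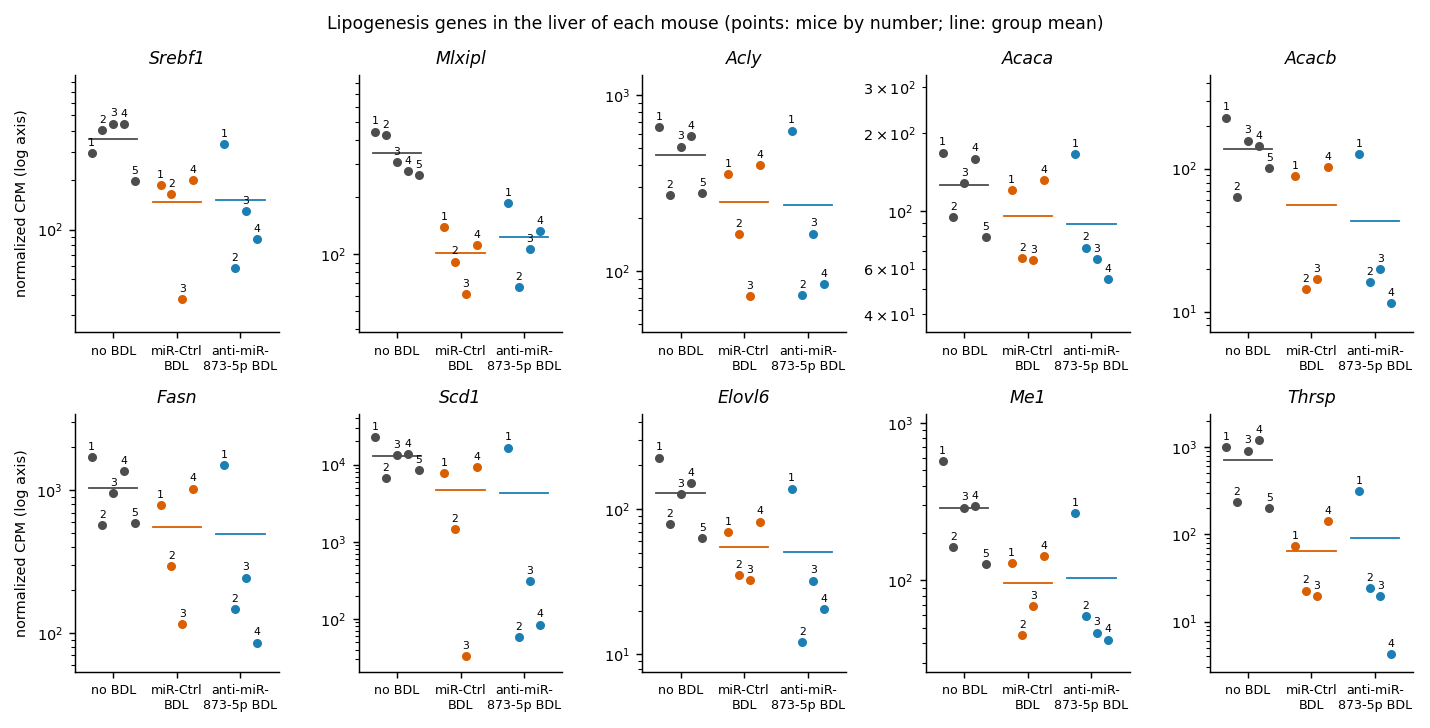
Normalized CPM (log axis) of the 10 lipogenesis genes in each mouse, numbered as in the labels, with the arithmetic group mean as a line. Values of no BDL and miR-Ctrl BDL are scaled in their shared table and those of anti-miR-873-5p BDL in its table with no BDL. Mlxipl in both BDL groups and Thrsp in miR-Ctrl BDL lie below every mouse without BDL, while anti-miR-873-5p mouse 1 lies above the other 3 mice of its group in every panel.

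Setting miR-Ctrl BDL beside no BDL asks what ligation with a control injection goes along with in this pathway. Of the 10 members, 5 fell, namely Srebf1, Mlxipl, Elovl6, Me1 and Thrsp, and 0 rose. Among all 13072 genes tested, 35.7% passed, 16.6% lower and 19.1% higher, and 45.7% had an unadjusted p under 0.05, as did 5 of the members. The members' log2FC ran from -3.47 to -0.39 with a median of -1.29, beside a median of -0.011 over all genes. All 10 were below 0, as were 50.9% of genes, but with scaling by library size alone, which moves the median of all genes to 0.79, the members' median was -0.48 and Acaca turned to 0.41. Under that scaling Mlxipl and Thrsp passed, beside 9360 genes higher and 275 lower, and with the 20 top genes left out of the library size the same members passed, beside 5250 higher and 732 lower.

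Mlxipl (Entrez gene 58805, chr5:135089890-135139768 of GRCm38, plus strand) encodes ChREBP, which switches on glycolytic and lipogenic genes when glucose is plentiful. It had 443.4, 424.5, 304.7, 273.8 and 262.2 CPM in no BDL mice 1 to 5 and 139.2, 91.2, 61.7 and 111.6 CPM in miR-Ctrl BDL mice 1 to 4. Every ligated mouse was below every mouse without BDL, a pattern shown by 2 of the 10 members and 14.8% of genes. The mean was 100.9 ± 32.7 (SD, n = 4) beside 341.7 ± 85.9 (SD, n = 5), 3.39-fold lower in the fit (log2FC -1.76, SE 0.26, adjusted p = 0.00105). Of its exon sequence 4.24% overlaps another gene, and the libraries do not keep the strand.

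Srebf1 (Entrez gene 20787, chr11:60199084-60224186, minus strand) had 293.8, 408.8, 445.5, 442.1 and 197.3 CPM without BDL and 187.2, 165.1, 37.5 and 201.7 CPM in miR-Ctrl BDL. The groups overlapped only where miR-Ctrl mouse 4 exceeded no BDL mouse 5, and miR-Ctrl mouse 3 was far below the rest. Srebf1 fell (log2FC -1.27, SE 0.44, adjusted p = 0.0468), but 2 of the 9 fits that each left out 1 mouse kept it under 0.05. SREBP-1c acts after cleavage of its precursor, which RNA does not show.

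Thrsp (Entrez gene 21835, chr7:97412933-97417550, minus strand) had the lowest log2FC of the members. Mice without BDL had 996.7, 232.7, 913.5, 1204 and 198.3 CPM, and miR-Ctrl BDL mice had 73.5, 22.7, 19.8 and 140.5 CPM. No ligated mouse reached the lowest mouse without BDL. The mean was 64.1 ± 56.6 (SD, n = 4) beside 709.0 ± 462.9 (SD, n = 5), 11.1-fold lower in the fit (log2FC -3.47, SE 0.80, adjusted p = 0.00799). Thrsp and Mlxipl passed in all 9 fits without 1 mouse.

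Of the members that supply reductant or modify the product, Me1 and Elovl6 fell. Me1 (Entrez gene 17436, chr9:86581363-86695914, minus strand) had 569.9, 161.8, 289.3, 296.7 and 127.0 CPM without BDL and 128.3, 44.9, 68.9 and 142.1 CPM in miR-Ctrl BDL (log2FC -1.59, SE 0.48, adjusted p = 0.0279). Of the 50-base windows of its transcripts 22.9% also occur in Gm7049 or Gm7329, so its reads may have been split by the counting. Elovl6 (Entrez gene 170439, chr3:129532386-129638495, plus strand) had 226.6, 79.1, 126.9, 151.3 and 62.9 CPM without BDL and 69.5, 35.2, 32.4 and 82.1 CPM in miR-Ctrl BDL (log2FC -1.24, SE 0.42, adjusted p = 0.0415). For both genes, miR-Ctrl mice 1 and 4 lay within the range of no BDL and mice 2 and 3 below it. Leaving out 1 mouse kept Me1 in 5 and Elovl6 in 3 of 9 fits, with adjusted p up to 0.0693 and 0.107. A single fit of all 3 groups tests 8 members, because counts of Srebf1 and Mlxipl differ slightly between tables. In that fit Thrsp alone passed in miR-Ctrl BDL, beside 34.6% of 12984 genes.

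The core enzymes did not pass. Fasn (Entrez gene 14104, chr11:120805958-120825166, minus strand) had 1721, 567.6, 957.9, 1366 and 590.0 CPM without BDL and 793.3, 293.1, 115.8 and 1030.2 CPM in miR-Ctrl BDL (log2FC -0.90, SE 0.59, adjusted p = 0.266). Acly (Entrez gene 104112, chr11:100476352-100528000, minus strand) had 269.3 to 652.5 CPM beside 71.4 to 397.2 CPM (log2FC -0.90, SE 0.48, adjusted p = 0.177). Acaca (Entrez gene 107476, chr11:84129635-84401651, plus strand), the cytosolic carboxylase that feeds synthesis, had 79.6 to 168.0 CPM beside 65.0 to 131.9 CPM (log2FC -0.39, SE 0.29, adjusted p = 0.327), and 30.4% of its 50-base windows occur in other genes. For Acacb (Entrez gene 100705, chr5:114146321-114250761, plus strand), the carboxylase at the mitochondrial membrane whose malonyl-CoA restrains the import of fatty acids, the values were 63.3 to 228.0 and 14.4 to 102.1 CPM (log2FC -1.31, SE 0.62, adjusted p = 0.125). In all 4 genes, miR-Ctrl mice 2 and 3 were below every mouse without BDL and mice 1 and 4 were within the range of that group. The share of all genes placed this way was not determined.

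**Figure D2:**
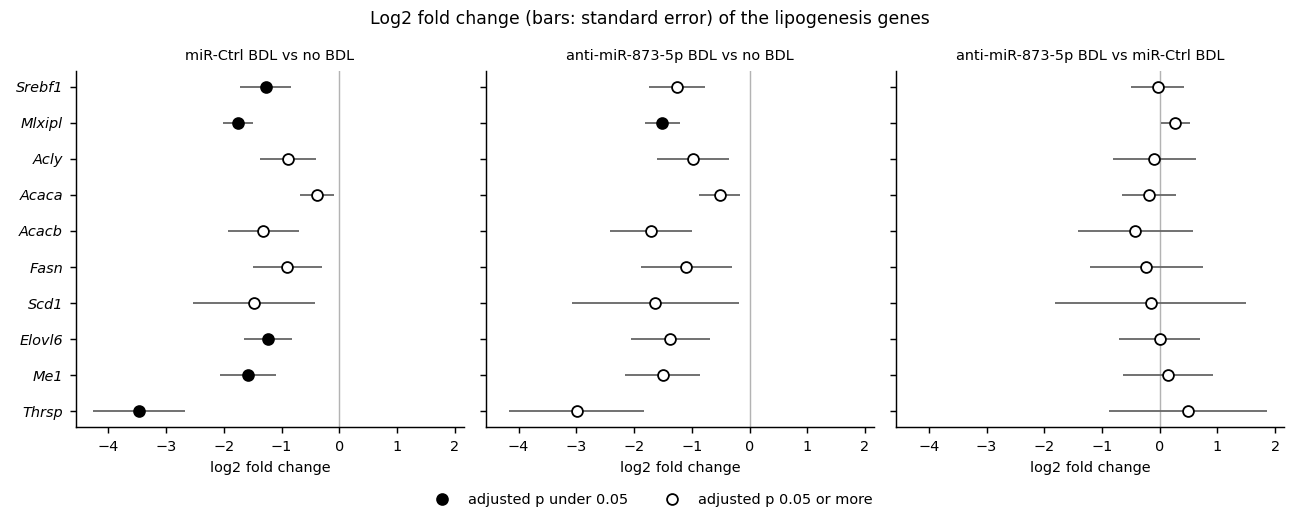
Log2 fold change of each lipogenesis gene with its standard error in the 3 comparisons, filled where the adjusted p was under 0.05. Filled points are 5 for miR-Ctrl BDL against no BDL, 1 for the treated mice against no BDL and 0 between the BDL groups. With library-size scaling Acaca lies above 0 in the first (0.41) and second comparison (0.27), and Elovl6 below 0 in the third (-0.025).

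Scd1 (Entrez gene 20249, chr19:44394450-44407709, minus strand) varied most within the BDL groups. Its levels were 22799, 6671, 13207, 13729 and 8450.0 CPM in no BDL, 7834, 1445, 33.2 and 9355 CPM in miR-Ctrl BDL and, scaled in the other table, 16646, 58.2, 308.8 and 84.3 CPM in treated mice. Of the miR-Ctrl mice, 1 and 4 were within the range of no BDL and mouse 3 was far below it, whereas treated mouse 1 was within that range and the other 3 far below. The highest mouse exceeded the lowest 3.42-fold in no BDL, 282.1-fold in miR-Ctrl BDL and 286.1-fold in treated mice, and 99.8% of genes tested had a smaller ratio in each BDL group. Scd1 passed neither in miR-Ctrl BDL (log2FC -1.47, SE 1.06, adjusted p = 0.309) nor in treated mice (log2FC -1.63, SE 1.44, adjusted p = 0.451). Of its 50-base windows, 4.56% occur in Scd2, Scd3 or Scd4.

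Treated mice were set beside the same 5 mice without ligation, so these values share controls with those above. Of the 10 members, 1 fell, Mlxipl, and 0 rose, beside 21.5% of 13130 genes that passed, 8.44% lower and 13.1% higher. At an unadjusted p under 0.05 there were 5 members, beside 36.2% of genes. All 10 log2FC were below 0, beside 50.7% of genes, from -2.99 to -0.52 with a median of -1.44 (all genes -0.0070), and with library-size scaling, where the median of all genes is 0.82, the members' median was -0.62 and Acaca turned to 0.27. Library-size scaling called 10063 genes higher and 131 lower, and leaving the 20 top genes out of the library size 4410 and 335. DESeq2's Wald test called 5 members lower, Srebf1, Mlxipl, Acacb, Me1 and Thrsp, beside 27.7% of genes (2109 higher and 1521 lower).

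Mlxipl had 185.7, 67.1, 105.9 and 132.3 CPM in the treated mice and 453.6, 433.7, 311.9, 280.6 and 268.0 CPM in no BDL. The groups did not overlap, which holds for 1 of the 10 members, with 8.23% of genes apart and lower and 10.1% apart and higher. It was 2.85-fold lower (log2FC -1.51, SE 0.30, adjusted p = 0.00853), passed in all 9 fits without 1 mouse and missed with library-size scaling (-0.66, adjusted p = 0.0580).

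For the other 9 members, treated mice 2, 3 and 4 were below every mouse without BDL and mouse 1 was within that group's range. The share of all genes with this pattern was not determined. Srebf1 had 334.2, 57.9, 130.2 and 87.1 CPM in treated mice 1 to 4 (log2FC -1.25, SE 0.48, adjusted p = 0.0903). Thrsp had 315.5, 24.3, 19.5 and 4.27 CPM (log2FC -2.99, SE 1.17, adjusted p = 0.0937). Fasn had 1508, 148.0, 244.4 and 85.8 CPM (log2FC -1.10, SE 0.78, adjusted p = 0.349). In each of these genes mouse 1 stood well above the other treated mice. Adjusted p of the 6 remaining members ran from 0.115 (Acacb) to 0.451 (Scd1).

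Mouse 1 was the highest of the 4 treated mice for all 10 members, a position it held for 23.5% of the genes tested. It was picked out after these values were seen. The other treated mice, 2, 3 and 4, were each below every mouse without BDL for all 10 members. How many of all genes did so was not determined, and 8.23% had all 4 treated mice below. The fit without mouse 1 is therefore a description and not a separate test. In it all 10 members passed, all lower, beside 24.1% of 13419 genes that passed. Their log2FC ran from -1.01 (SE 0.26, adjusted p = 0.0238) for Acaca to -6.46 (SE 0.82, adjusted p = 0.00134) for Scd1, with a median of -2.59. In that fit the log2FC was -5.50 for Thrsp, -3.17 for Acacb, -2.74 for Fasn, -2.61 for Elovl6, -2.58 for Me1, -2.14 for Acly, -1.99 for Srebf1 and -1.79 for Mlxipl. Leaving out any of the other 8 mice left Mlxipl as the called member, beside 9.46% to 31.7% of genes. Mouse 1 had 58643 CPM of hepatocyte markers and 1057 CPM of cholangiocyte markers, both within the range of the other treated mice. Its macrophage markers summed to 316.1 CPM, below the 347.7, 537.9 and 921.9 CPM of treated mice 2, 3 and 4, and the part of this in the members' levels was not tested.

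**Figure D3:**
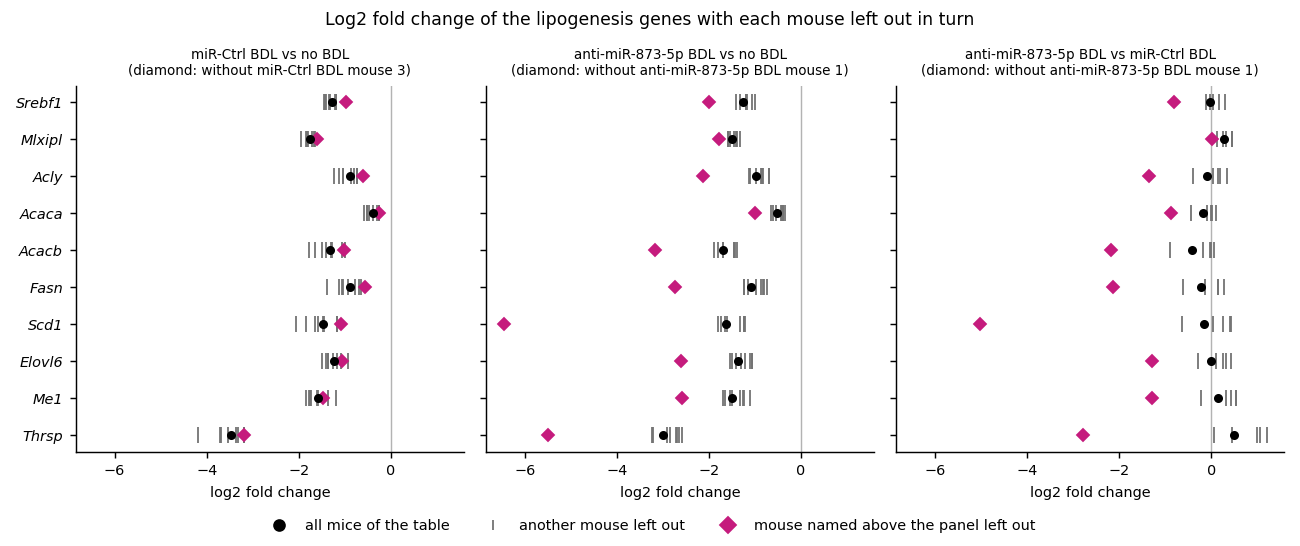
Log2 fold change of the 10 lipogenesis genes with all mice of a table (circles) and with each mouse left out in turn (ticks and diamonds), for the 3 comparisons. Without anti-miR-873-5p mouse 1 (diamonds in the middle and right panels) Scd1 moves from -1.63 to -6.46 against no BDL and from -0.16 to -5.03 against miR-Ctrl BDL. The mouse marked in each panel was chosen after its values were seen.

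Whether the inhibitor changed the pathway in ligated mice is the question of the last comparison, of 3 mice with 3. Of the 10 members, 0 passed in edgeR, 0 passed in DESeq2 and 0 had an unadjusted p under 0.05, beside 0 genes called by edgeR, 19 higher and 11 lower by DESeq2 and 6.28% under an unadjusted 0.05 among 13746. The log2FC ran from -0.42 (Acacb, SE 1.00) to 0.49 (Thrsp, SE 1.36) with a median of -0.065 (all genes 0.0057). Of the 10, 6 were below 0, beside 48.8% of genes, and with library-size scaling 7, since Elovl6 turned. The groups overlapped for all 10 members, while 6.59% of genes were apart and higher and 4.77% apart and lower. Adjusted p ran from 0.866 to 0.999, and the SE, from 0.25 for Mlxipl to 1.65 for Scd1, leave wide intervals for most members. Using all 4 mice of both groups, joined from the other tables, also gave 0 members, beside 18 genes higher and 10 lower of 13521 (0.207%).

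Both groups held high and low mice. In the scaling of this table Scd1 had 23578, 431.5 and 118.2 CPM in treated mice 1, 3 and 4 and 11319, 2073 and 13495 CPM in miR-Ctrl mice 1, 2 and 4. Fasn had 2135, 341.4 and 120.3 CPM beside 1146, 420.3 and 1486 CPM. In both genes the treated group held the highest mouse and the lowest. Mlxipl was less spread, with 263.0, 148.0 and 185.5 CPM beside 201.9, 130.9 and 161.4 CPM (log2FC 0.27, SE 0.25, adjusted p = 0.866). Treated mouse 1 was the highest of its 3 for 10 of 10 members (37.6% of genes), treated mouse 4 the lowest for 9 (31.9%), and miR-Ctrl mouse 2 the lowest of its 3 for 10 of 10 (35.2%). Without treated mouse 1, picked out after its values were seen, 9 members had an unadjusted p under 0.05, beside 9.89% of genes. The median was then -1.32, but 0 passed after adjustment (0.295 for Scd1 to 0.980 for Mlxipl). Without miR-Ctrl mouse 4, treated mouse 3 or treated mouse 4 the median was 0.20, 0.26 and 0.33. Medians without miR-Ctrl mouse 1 or 2, the other fits of this kind, are not given here.

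Ratios between members within a mouse do not depend on how libraries are scaled. Reads were set over those of Fasn, a choice made after the values were seen, and no test was made. Per 100 Fasn reads, Thrsp had 57.9, 41.0, 95.4, 88.1 and 33.6 reads in no BDL mice 1 to 5, 9.27, 7.74, 17.1 and 13.6 in miR-Ctrl BDL mice 1 to 4 and 20.9, 16.4, 7.99 and 4.97 in treated mice 1 to 4. All 8 ligated mice were below all 5 mice without BDL. In miR-Ctrl BDL 0.398% of genes were apart from no BDL and lower in this ratio and 9.92% higher, and in treated mice 0.259% lower and 3.15% higher. Scd1 had 1330, 1180, 1380, 1010 and 1430 reads per 100 Fasn reads in no BDL. It had 987, 493, 28.6 and 908 in miR-Ctrl BDL, all lower, and 1100, 39.3, 126 and 98.2 in treated mice, where mouse 1 was within the range of no BDL. The 7 other members overlapped with no BDL in their ratio to Fasn in both BDL groups. Acly, the enzyme that makes the acetyl-CoA Fasn depends on, had 37.9 to 52.9 reads per 100 Fasn reads in no BDL, 38.6 to 61.7 in miR-Ctrl BDL and 41.6 to 98.0 in treated mice.

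**Figure D4:**
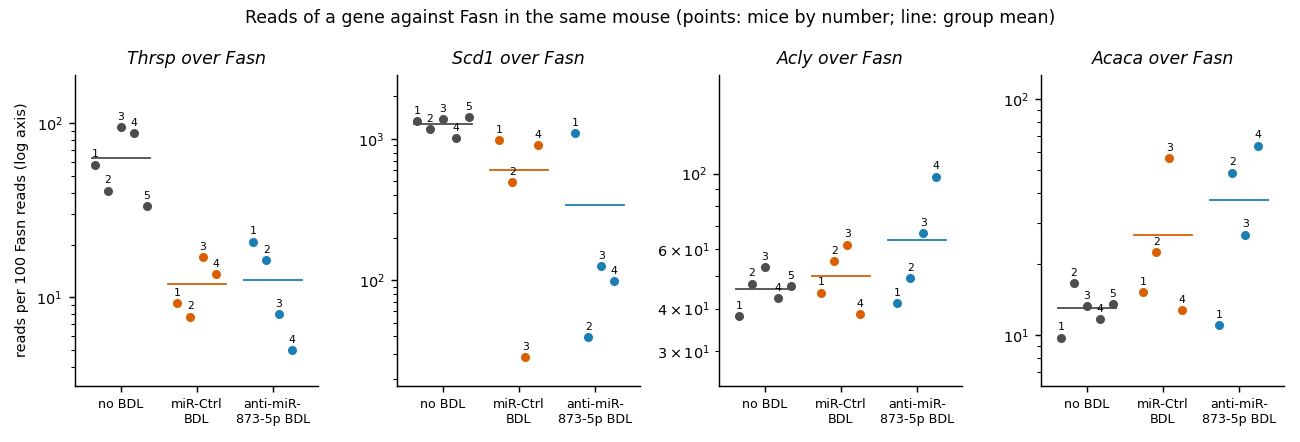
Reads of Thrsp, Scd1, Acly and Acaca per 100 Fasn reads in the same mouse (log axes), with the arithmetic group mean as a line. Thrsp was at 33.6 or more without BDL and at 20.9 or less in all ligated mice, whereas Acly overlapped between the groups.

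Genes around the core pathway were described by lists, whose counts and medians are from TMM scaling, library-size scaling shifting all genes up as given above. Of 15 regulators of lipogenesis, 4 fell and 0 rose in miR-Ctrl BDL (median log2FC -0.24), beside 16.6% lower and 19.1% higher of all genes. In treated mice 4 fell and 0 rose (median -0.35), beside 8.44% lower and 13.1% higher of all genes. Mid1ip1, a partner of Thrsp that promotes polymerization of acetyl-CoA carboxylase, fell in miR-Ctrl BDL (log2FC -1.54, SE 0.33, adjusted p = 0.00539) and in treated mice (log2FC -1.28, SE 0.40, adjusted p = 0.0453), and neither call held with library-size scaling (-0.74, adjusted p = 0.0761, and -0.49, adjusted p = 0.252). Scap, which escorts SREBP to its activation, had -1.004 (adjusted p = 0.00113) and -0.75 (adjusted p = 0.0416), which became -0.20 (adjusted p = 0.362) and 0.043 with library-size scaling. In treated mice 2 of 9 fits without 1 mouse kept Mid1ip1 and 3 kept Scap. Nr1h3, the liver X receptor alpha, had -0.35, adjusted p = 0.0385, in miR-Ctrl BDL, but 0.47 with library-size scaling and 0.019 with the 20 top genes left out of the library size, and 3 of 9 fits without 1 mouse kept it (adjusted p up to 0.0951). With TMM scaling Usf2 was the other regulator that fell in miR-Ctrl BDL, and Usf2 and Mlx the others in treated mice.

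Of 14 genes of carbon and NADPH supply, 7 fell and 1 rose in miR-Ctrl BDL (median -0.68), beside 16.6% and 19.1% of all genes. In treated mice 1 fell and 0 rose (median -0.72), beside 8.44% and 13.1% of all genes. Pklr, liver pyruvate kinase and a known ChREBP target, had 681.4, 247.6, 601.7, 800.4 and 198.7 CPM without BDL and 171.3, 75.9, 60.1 and 169.1 CPM in miR-Ctrl BDL, with no overlap (log2FC -2.09, SE 0.50, adjusted p = 0.0101), and passed with library-size scaling too (-1.29, adjusted p = 0.0383). Slc25a1, the mitochondrial citrate carrier, had -0.67, adjusted p = 0.0184, and 0.14 with library-size scaling. Pgd, of the pentose phosphate pathway, was the gene that rose, and Khk, fructokinase, the gene that fell in treated mice.

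Among 14 genes of elongation and desaturation, 7 fell and 1 rose in miR-Ctrl BDL (median -0.81), beside 16.6% and 19.1% of all genes. In treated mice 3 fell and 1 rose (median -0.89), beside 8.44% and 13.1% of all genes. Elovl3, an elongase of very long saturated and monounsaturated chains, had 236.4, 351.4, 36.3, 62.5 and 404.6 CPM without BDL and 3.56, 3.02, 2.94 and 1.55 CPM in miR-Ctrl BDL (log2FC -6.30, SE 0.83, adjusted p = 0.000586). In treated mice it had 24.1, 2.27, 2.45 and 2.79 CPM (log2FC -4.82, SE 1.07, adjusted p = 0.0132). All ligated mice were below all mice without BDL, and both calls held with library-size scaling (-5.41 and -3.96). Genes of polyunsaturated fatty acid synthesis also fell in miR-Ctrl BDL: Elovl2 (-1.21, adjusted p = 0.00428), Elovl5 (-1.14, adjusted p = 0.0293), Fads1 (-1.11, adjusted p = 0.0189) and Fads2 (-1.26, adjusted p = 0.0270). Of the 9 fits without 1 mouse, 9 kept Elovl2, 8 Fads1, 5 Elovl5 and 5 Fads2, with adjusted p up to 0.0668. With library-size scaling none of these 4 genes passed, with adjusted p of 0.152, 0.401, 0.344 and 0.285 in that order. Elovl2 also passed in treated mice (-1.04, adjusted p = 0.0150), in 7 of 9 fits without 1 mouse and not with library-size scaling (-0.24, adjusted p = 0.376). Elovl7 was the gene that rose, with TMM scaling, in each BDL group.

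In triglyceride assembly and lipid droplets 14 of 16 genes were tested. In miR-Ctrl BDL 3 fell and 0 rose (median -0.30), beside 16.6% and 19.1% of all genes. In treated mice 2 fell and 0 rose (median -0.094), beside 8.44% and 13.1% of all genes. Dgat2, which makes triglyceride, had 540.1, 505.2, 565.3, 552.6 and 463.9 CPM without BDL and 197.7, 231.7, 363.1 and 231.9 CPM in miR-Ctrl BDL (log2FC -1.04, SE 0.18, adjusted p = 0.00245). In treated mice it had 272.6, 279.6, 226.8 and 260.8 CPM (log2FC -1.04, SE 0.14, adjusted p = 0.00185). The groups were apart in both, and Dgat2 passed in all fits without 1 mouse, but not with library-size scaling (-0.27 and -0.23). Lpin1, a phosphatidate phosphatase, fell in miR-Ctrl BDL (log2FC -1.67, SE 0.58, adjusted p = 0.0479), which 2 of 9 such fits kept and library-size scaling did not (-0.89, adjusted p = 0.177). Of 8 genes that set malonyl-CoA and its target, 2 fell and 3 rose in miR-Ctrl BDL (median -0.20). In treated mice 1 fell and 1 rose (median 0.0096). The shares of all genes are those given for triglyceride assembly. Mlycd, malonyl-CoA decarboxylase, had -0.61, adjusted p = 0.00549, in miR-Ctrl BDL and 0.18 with library-size scaling. Between the BDL groups, 0 genes of any of these lists passed in edgeR.

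Markers of the fasted state were set beside the members because feeding moves this pathway and the labels do not state how the mice were fed. Of all genes, 19.1% rose and 16.6% fell in miR-Ctrl BDL, and 13.1% rose and 8.44% fell in treated mice. Of 10 fasting response genes, 1 rose (Pdk4) and 1 fell (G6pc) in miR-Ctrl BDL, and 0 rose and 1 fell (G6pc) in treated mice. Their summed level was 3653 to 5489.9 CPM in no BDL, 1799, 2522, 9765 and 1886 CPM in miR-Ctrl BDL mice 1 to 4 and 2537, 11926, 3065 and 2013 CPM in treated mice 1 to 4. The highest mouse of each BDL group was the one that the table of the BDL groups lacks. Those mice also had the lowest summed level of the 10 members in their groups, 522.4 CPM for miR-Ctrl mouse 3 and 588.6 CPM for treated mouse 2, and the fewest cholangiocyte markers, 400.3 and 195.7 CPM. Treated mouse 4 had nearly as low a member sum, 606.5 CPM, with the lowest fasting sum of its group, 2013 CPM. Where the member sum was high it was mostly Scd1, 9355 of 11694 CPM in miR-Ctrl mouse 4 and 16646 of 20313 CPM in treated mouse 1. By gene, miR-Ctrl mouse 3 was the lowest of its group for 8 members, beside 39.7% of all genes. Treated mice 2 and 4 were the lowest for 5 members each, beside 39.8% and 21.9% of all genes. Cidec, a lipid droplet protein, had 117.5 and 149.4 CPM in the mice absent from that table and 2.05 to 3.97 CPM in the other 6 ligated mice. The part of feeding in the members' levels was not tested.

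**Figure D5:**
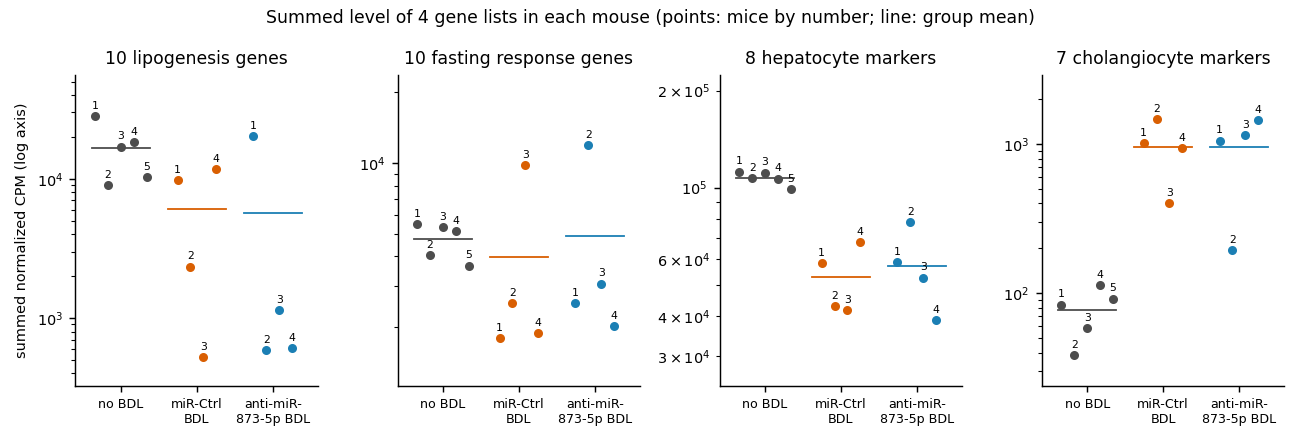
Summed normalized CPM (log axes) of the 10 lipogenesis genes, 10 fasting response genes, 8 hepatocyte markers and 7 cholangiocyte markers in each mouse, with the arithmetic group mean as a line. Where the lipogenesis sum is high it is mostly Scd1, as in treated mouse 1 (16646 of 20313 CPM). Values of treated mice are scaled in their table with no BDL and the others in the table of miR-Ctrl BDL and no BDL. In miR-Ctrl mouse 3 and treated mouse 2 the fasting sum is the highest (9765 and 11926 CPM) and the lipogenesis sum the lowest of the group.

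Without miR-Ctrl mouse 3, 3 members fell in miR-Ctrl BDL (Srebf1, Mlxipl and Thrsp) in place of 5, while the share of all genes called was 42.3% of 13509 in place of 35.7%. Without treated mouse 2, Mlxipl was again the called member in treated mice, beside 31.7% of 13597 genes. Across the 9 fits of miR-Ctrl BDL and no BDL that left out 1 mouse, 28.8% to 42.3% of all genes were called. The count of members ran from 2 to 5. It was 2, Mlxipl and Thrsp, without no BDL mouse 1, no BDL mouse 4 or miR-Ctrl mouse 2, and 3, Mlxipl, Me1 and Thrsp, without no BDL mouse 3 or miR-Ctrl mouse 1.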

How the data were processed

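RNA of 13 mouse livers was sequenced as single reads of 50 nt (TruSeq RNA v2, which keeps no strand). Reads were mapped by the authors to mm10 with TopHat, and raw, not normalized counts per Entrez gene were deposited in 1 table for each comparison. The submitters' processing notes also name CASAVA 1.8.2, FastQC, Trim Galore and DESeq2. The counting program and its annotation are not given in the sources used here. According to the study's methods, samples judged outliers by clustering and PCA were removed. Groups were taken from sample titles.

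The deposited counts were fitted, 1 whole table at a time, with edgeR 4.0.16 in R 4.3.3 (filterByExpr, TMM, quasi-likelihood test, Benjamini-Hochberg threshold 0.05), with limma 3.58.1. DESeq2 1.42.0 served as an alternative. An SE is the size of the log2FC divided by the square root of F. The code was tested on simulated data. Depth was 12185333 to 19689037 counts per mouse. P-values set the difference between groups against the variation between mice within groups. The members, lists and alternatives were chosen with earlier results of these data known. Named are the 10 members and, of 26 pathway genes picked by role, those that passed or bear on a mouse. Some of these genes are not reported here. Other genes were named after their values were seen. Alternatives were library-size scaling, DESeq2 size factors, the library size without the 20 top genes, DESeq2, 2 other filters, 1 fit of all groups, mouse number as a block, an adjusted p of 0.1, all 4 mice of both BDL groups, and leaving out each mouse. Coordinates, the microRNA and promoters are from RefSeq (GRCm38), and 3′UTRs and 50-base windows from GENCODE M21.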

Additional observations from a re-analysis of the deposited data

Results flagged for a closer look

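Dixon's gap test, which marks a mouse far from all others of its group, was run on each group of 4 or 5 for the 10 members and for the genes picked by role around the pathway, including some not otherwise described. It marked 18 of 102 groups (17.6%), and chance marks about 1 in 20 where values are normally distributed. The test was run on CPM without logs, for which the chance rate was not determined, and every mark was at the high end. The genes are read in the same mice and do not vary independently.

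Anti-miR-873-5p mouse 1 stood above the other 3 mice of its group in 15 genes. Its levels were 626.9 CPM for Acly, 166.1 for Acaca, 125.7 for Acacb, 1508 for Fasn, 16646 for Scd1, 138.6 for Elovl6, 266.7 for Me1 and 315.5 for Thrsp among the members. Among the other genes they were 71.6 CPM for Mid1ip1, 534.9 for Acss2, 342.0 for Elovl2, 24.1 for Elovl3, 246.7 for Scd2, 138.1 for Gpam and 14.7 for Pnpla3. Srebf1 and Mlxipl were highest in the same mouse without being marked.

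Cidec stood out in the mice that the table of the BDL groups lacks, with 117.5 CPM in miR-Ctrl mouse 3 and 149.4 CPM in anti-miR-873-5p mouse 2. In no BDL, Pnpla3 was high in mouse 1 (53.1 CPM).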

How the results depend on the processing

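Shares of all genes called are given in brackets. In miR-Ctrl BDL the count of 5 lower members (35.7%) became 2 with library-size scaling (73.7%) and 2 with the library size without the 20 top genes (45.8%). It was 1 in the fit of all 3 groups (34.6%), which cannot test Srebf1 and Mlxipl. Without 1 mouse it ran from 2 to 5 (28.8% to 42.3%). In treated mice the count of 1 (21.5%) became 0 with library-size scaling (77.6%), where 1 member and 79.4% of genes had an unadjusted p under 0.05. It was 0 in the fit of all 3 groups (24.3%), where 4 members and 37.5% of genes did unadjusted. It was 5 in DESeq2 (27.7%) and 3 at an adjusted p of 0.1 (31.1%). Without 1 mouse it ran from 1 to 10 (9.46% to 31.7%). The 10 came without treated mouse 1 (24.1%), which was picked out after its values were seen. Between the BDL groups it was 0 in every setting run. Beyond what each setting changes by construction, the cause was not tested. The labels state no pairing by mouse number. The correlations of same-numbered mice ran from -0.198 to 0.349, and of the 10 only number 1 of the BDL groups correlated best with its own number. Between the BDL groups only numbers 1 and 4 could be compared, too few to decide whether mice were paired. With mouse number as a block the counts were 7 in miR-Ctrl BDL (31.1% of all genes called), 4 in treated mice (16.7%) and 0 between the BDL groups (0 genes called). Directions relative to no BDL turned with library-size scaling for Acaca (0.41 in miR-Ctrl BDL, 0.27 in treated mice), Nr1h3 (0.47), Slc25a1 (0.14) and Mlycd (0.18) in miR-Ctrl BDL and Scap (0.043) in treated mice, and without the 20 top genes for Nr1h3 (0.019). Between the BDL groups, Elovl6 turned to -0.025 with library-size scaling, -0.070 without the 20 top genes, -0.14 in the fit of all groups, -0.14 with all 4 mice of both groups and -0.52 with the block, Me1 to -0.38 and Thrsp to -1.41 with the block, and Srebf1 to 0.011 with all 4 mice. Without 1 mouse, log2FC between the BDL groups ran from -0.81 to 0.30 for Srebf1, -1.35 to 0.34 for Acly, -0.87 to 0.092 for Acaca, -2.19 to 0.057 for Acacb, -2.14 to 0.28 for Fasn, -5.03 to 0.42 for Scd1, -1.28 to 0.43 for Elovl6, -1.29 to 0.55 for Me1 and -2.79 to 1.20 for Thrsp. For the 26 pathway genes, in comparisons where they did not pass, 94 of 1020 values under other settings changed sign. Depth limited no member.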
